A study of Homo sapiens with 15 samples.

Results

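Transcript levels of glycolysis and hypoxia genes were followed in the triple-negative breast cancer line CAL51 and in its doxorubicin-resistant derivative CALDOX. The members were 40 genes chosen by function: glucose and lactate transporters, glycolytic enzymes and their regulators, the alpha subunits of the hypoxia-inducible factors (HIF), and HIF target genes. Each was read through its brightest probe set, and 37 of the 40 were tested among 19775 genes, while SLC16A1, SLC16A3 and CA9 were not analysed here. The groups were untreated CAL51, CAL51 in 0.4 µM doxorubicin for 24 h and for 48 h, untreated CALDOX, and CALDOX in 4 µM doxorubicin for 24 h. CALDOX was selected by long culture of CAL51 in 0.4 µM doxorubicin, and its treated cultures had first been grown for 3 passages without drug. Whether the untreated CALDOX cultures were drug-free is not given in the labels. Each group held 3 independent cultures with 1 array each, 15 arrays in all. The labels give 1 g/L glucose, 4 mM glutamine and 10% serum for the CAL51 medium and none of these for CALDOX. A difference of medium and a difference of line therefore cannot be told apart. Confluency is given, at the same level, for the treated groups of both lines but not for the untreated groups. The part of culture density in the treatment comparisons was not tested. No group was kept at low oxygen according to the labels, and CALDOX is a selected population whose clonality is not stated.

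Glucose enters cells through facilitative transporters, is trapped by hexokinase and is split by the glycolytic enzymes to pyruvate, which lactate dehydrogenase turns into lactate or pyruvate dehydrogenase passes to the mitochondria. In the presence of oxygen the EGLN prolyl hydroxylases mark HIF alpha subunits for destruction. When oxygen falls, the alpha subunits accumulate, pair with ARNT and bind a short core motif near many genes of glycolysis, blood vessel growth and acid handling. HIF activity is set mainly at the level of protein, which arrays do not measure. Tumour cells often keep this program on with oxygen present.

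To show where this core motif lies in genes on which the results turn, the 250 bases before the start are printed for ADM, which had the lowest CALDOX level relative to CAL51, for ENO2, the glycolytic enzyme gene with the largest rise in CALDOX, for EPAS1, which had the largest rise under treatment, and for LDHA, a much-studied HIF target. They are RefSeq windows in GRCh38.p14, all on the plus strand, written 5′ to 3′. ADM lies at chr11:10304823-10305072, ENO2 at chr12:6914330-6914579, EPAS1 at chr2:46297157-46297406 and LDHA at chr11:18394313-18394562. Capitals mark every match to ACGTG or GCGTG on either strand.
ADM: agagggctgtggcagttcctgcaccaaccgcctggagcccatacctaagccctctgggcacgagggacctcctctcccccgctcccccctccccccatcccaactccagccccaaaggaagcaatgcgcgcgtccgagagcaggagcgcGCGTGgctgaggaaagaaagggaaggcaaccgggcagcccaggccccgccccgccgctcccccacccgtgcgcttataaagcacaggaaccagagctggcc
ENO2: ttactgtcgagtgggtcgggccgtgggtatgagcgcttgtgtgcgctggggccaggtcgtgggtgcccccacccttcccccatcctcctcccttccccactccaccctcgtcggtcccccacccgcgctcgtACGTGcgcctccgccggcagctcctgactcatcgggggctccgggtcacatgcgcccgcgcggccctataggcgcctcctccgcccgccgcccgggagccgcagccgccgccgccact
EPAS1: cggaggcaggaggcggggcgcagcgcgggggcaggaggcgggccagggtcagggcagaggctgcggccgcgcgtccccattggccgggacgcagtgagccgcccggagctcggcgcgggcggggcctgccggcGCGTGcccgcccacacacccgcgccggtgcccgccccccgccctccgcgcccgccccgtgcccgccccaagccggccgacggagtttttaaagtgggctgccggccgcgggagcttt
LDHA: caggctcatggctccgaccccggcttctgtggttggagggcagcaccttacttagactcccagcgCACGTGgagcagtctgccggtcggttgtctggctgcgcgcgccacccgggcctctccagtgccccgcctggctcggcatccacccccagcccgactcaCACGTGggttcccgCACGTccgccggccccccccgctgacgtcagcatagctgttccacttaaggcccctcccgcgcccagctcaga
The match in ADM began at base -101 counted from the start, that in ENO2 at -118 and that in EPAS1 at -117. LDHA held 5 matches, because CACGTG is read as ACGTG on both strands. Over windows of 300 bases, which also hold 50 bases after the start, 33 of the 37 members had a window. ACGTG was found in 14 of them (42.4%) and in 21.6% of all 27305 genes' windows, GCGTG in 19 (57.6%) and 36.4%, and either core in 26 (78.8%) and 48.4%. Base composition was not matched between the sets. A match is a description of the letters and not evidence of binding.

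Resistant CALDOX cells differed from CAL51 cells in more members than either line did after doxorubicin. By limma with Benjamini-Hochberg adjustment over all genes (called at an adjusted p under 0.05), 5 members rose and 16 fell in untreated CALDOX against untreated CAL51. That is 56.8% of the 37, where 25.9% of all genes were called, 14.2% higher and 11.7% lower, so the excess lay among the lower genes. Most members were bright, with mean signals from percentile 23.1 (EGLN3) to 99.8 (LDHB) of all genes. Neither these shares nor those below were matched for brightness. In CAL51 at 24 h, 4 rose and 1 fell (13.5%), where 10.1% of all genes were called, 5.77% higher and 4.34% lower, so this share was near the background. At 48 h, 12 rose and 2 fell (37.8%), where 21.6% of all genes were called, 10.5% higher and 11.2% lower, and here the excess lay among the higher genes. In CALDOX under treatment, 5 rose and 4 fell (24.3%), where 10.3% of all genes were called, 4.82% higher and 5.50% lower. The arrays of the compared groups did not overlap for 28 members between the lines (36.9% of all genes), 12 at 24 h (23.3%), 17 at 48 h (33.6%) and 23 in treated CALDOX (30.8%). The median member difference was -0.08 on the log2 scale between the lines (all genes, 0.00), -0.04 at 24 h (all genes, -0.03), 0.02 at 48 h (all genes, -0.02) and -0.06 in treated CALDOX (all genes, -0.01). These medians are near those of all genes, and the members moved in both directions. Of the 56 calls of members, counted over these comparisons, 48 h against 24 h and the difference of responses, 20 had another probe set called the same way, 0 had one called the opposite way, 13 had no other and 23 had others of which none was called. In all, 24 members were called in at least 1 of these comparisons or between 48 h and 24 h, and 13 were called in none.

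**Figure D1:**
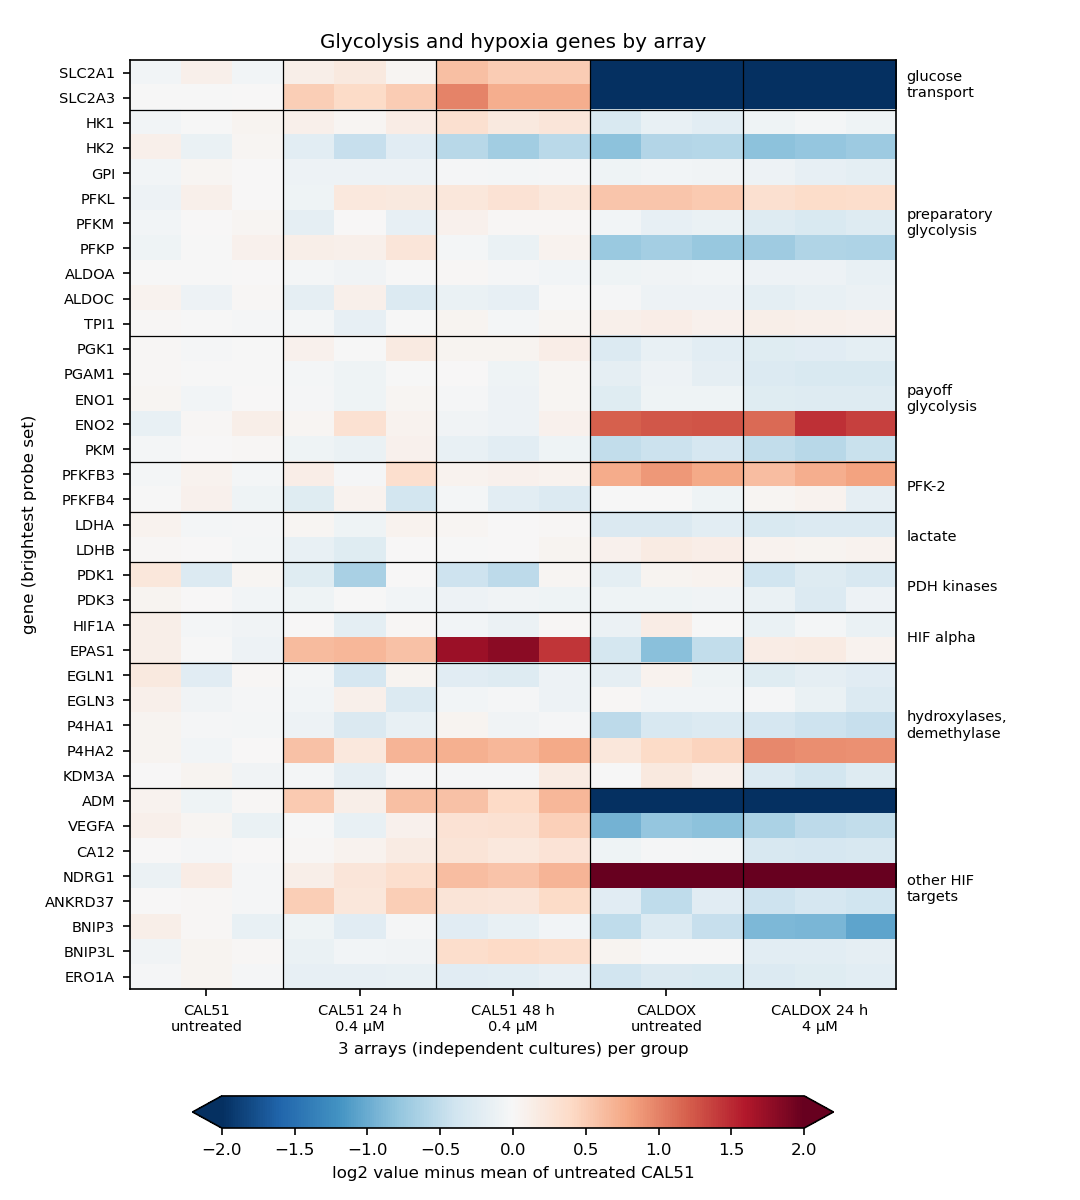
Log2 value of each of the 37 members (rows, grouped by role) on each of the 15 arrays (columns, 3 per group), minus the mean of untreated CAL51. Blue is lower and red is higher, and colours are capped at 2 log2 units in either direction. SLC2A1, SLC2A3 and ADM are lower and ENO2 and NDRG1 higher on every CALDOX array, while EPAS1 is highest in CAL51 at 48 h.

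The 15 arrays were alike in overall quality. Correlations between arrays were 0.9929 to 0.9978 within groups and 0.9789 to 0.9958 between groups. GAPDH, a glycolytic enzyme often used as a reference, lay between 14.50 and 14.60 on every array, and its difference was 0.00 (adjusted p = 0.996, limma) between the lines. GAPDH and the brightest members, such as LDHA and LDHB, lie near the highest value of the arrays, 14.762. Whether differences are compressed at that end was not tested. Markers of blood and endothelial cells averaged 6.83 to 7.07 and 6.61 to 6.89 over all arrays. The receptor genes ESR1, PGR and ERBB2 had means of 8.42, 6.14 and 10.03 in untreated CAL51 and 8.37, 6.18 and 10.09 in untreated CALDOX. ERBB2 lay at percentile 85.7 of all genes. Whether these levels match the triple-negative label was not tested. The 5 epithelial markers averaged 10.46 to 10.52 on untreated CAL51 arrays, 11.41 to 11.59 at 48 h and 11.02 to 11.09 in untreated CALDOX. All 5 had a higher mean at 48 h than in untreated CAL51. In untreated CALDOX, EPCAM (11.88 in CAL51, 12.32 in CALDOX) and KRT19 (6.59, 11.35) were higher, and KRT8 (12.55, 12.07), KRT18 (14.11, 13.63) and CDH1 (7.34, 5.99) were lower, so KRT19 carried that mean upwards. The 4 mesenchymal markers averaged 11.08 to 11.17 in untreated CAL51 and 11.06 to 11.21 in untreated CALDOX, with VIM lower (12.58, 10.86) and FN1 higher (11.37, 13.43). The 5 fibroblast markers averaged 7.22 to 7.34 in untreated CAL51 and 6.86 to 6.97 in untreated CALDOX. PDGFRB (8.97 in CAL51, 7.72 in CALDOX) and COL3A1 (6.91, 6.34) carried that mean downwards. COL1A1 (9.06, 8.97), DCN (7.64, 7.70) and LUM (3.84, 3.91) differed little. The epithelial and fibroblast averages therefore moved with the groups, and the part of these markers in the results below was not tested. In such bulk samples, fewer cells of a type and less RNA per cell cannot be told apart.

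Both glucose transporter genes were far lower in CALDOX and higher in treated CAL51. SLC2A1 encodes GLUT1, the widespread basal glucose transporter. Its log2 values were 10.94, 11.09 and 10.94 in untreated CAL51 and 8.64, 8.68 and 8.65 in untreated CALDOX. The groups did not overlap, and SLC2A1 was 5.04-fold lower in CALDOX (log2 difference -2.33 ± 0.06 SE, n = 3 arrays per group, adjusted p = 9.01e-14, limma). In CAL51 it was 11.12, 11.18 and 11.02 at 24 h and 11.59, 11.51 and 11.49 at 48 h. The 24 h arrays overlapped the untreated ones, with a difference of 0.12 ± 0.06 (adjusted p = 0.28), whereas at 48 h it rose by 0.54 ± 0.06 (adjusted p = 8.05e-06), a 1.45-fold change. In treated CALDOX the values were 8.98, 8.94 and 8.98, all above the untreated CALDOX arrays, a rise of 0.31 ± 0.06 (adjusted p = 0.00304) that did not pass with the mean of its probe sets (adjusted p = 0.358). The treated CALDOX arrays still lay below every CAL51 array.

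SLC2A3 encodes GLUT3, a high-affinity transporter typical of neurons. Its values were 10.33, 10.34 and 10.36 in untreated CAL51, 10.84, 10.73 and 10.86 at 24 h and 11.34, 11.07 and 11.06 at 48 h. In CALDOX they were 6.76, 7.45 and 7.66 untreated and 7.71, 7.41 and 7.59 treated. CALDOX arrays were thus below all CAL51 arrays and spread more widely, and the treated and untreated CALDOX arrays overlapped. The difference between the untreated lines was -3.06 ± 0.16 (adjusted p = 4.76e-10), which is 8.31-fold lower in CALDOX. SLC2A3 rose by 0.81 ± 0.16 at 48 h (adjusted p = 0.00145), and its differences of 0.47 ± 0.16 at 24 h (adjusted p = 0.0841) and 0.28 ± 0.16 in treated CALDOX (adjusted p = 0.363) did not pass. At 24 h it passed with only the compared arrays (0.00663), with the mean of its probe sets (0.00367) and without untreated CALDOX replicate 1 or 3 (0.00383 and 0.0448). Its transcript is close in sequence to that of SLC2A14, which was not analysed here, so the probe sets may read both. The other probe sets gave -1.84 for SLC2A1 and -3.10 and -4.07 for SLC2A3 between the untreated lines, all in the same direction.

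**Figure D2:**
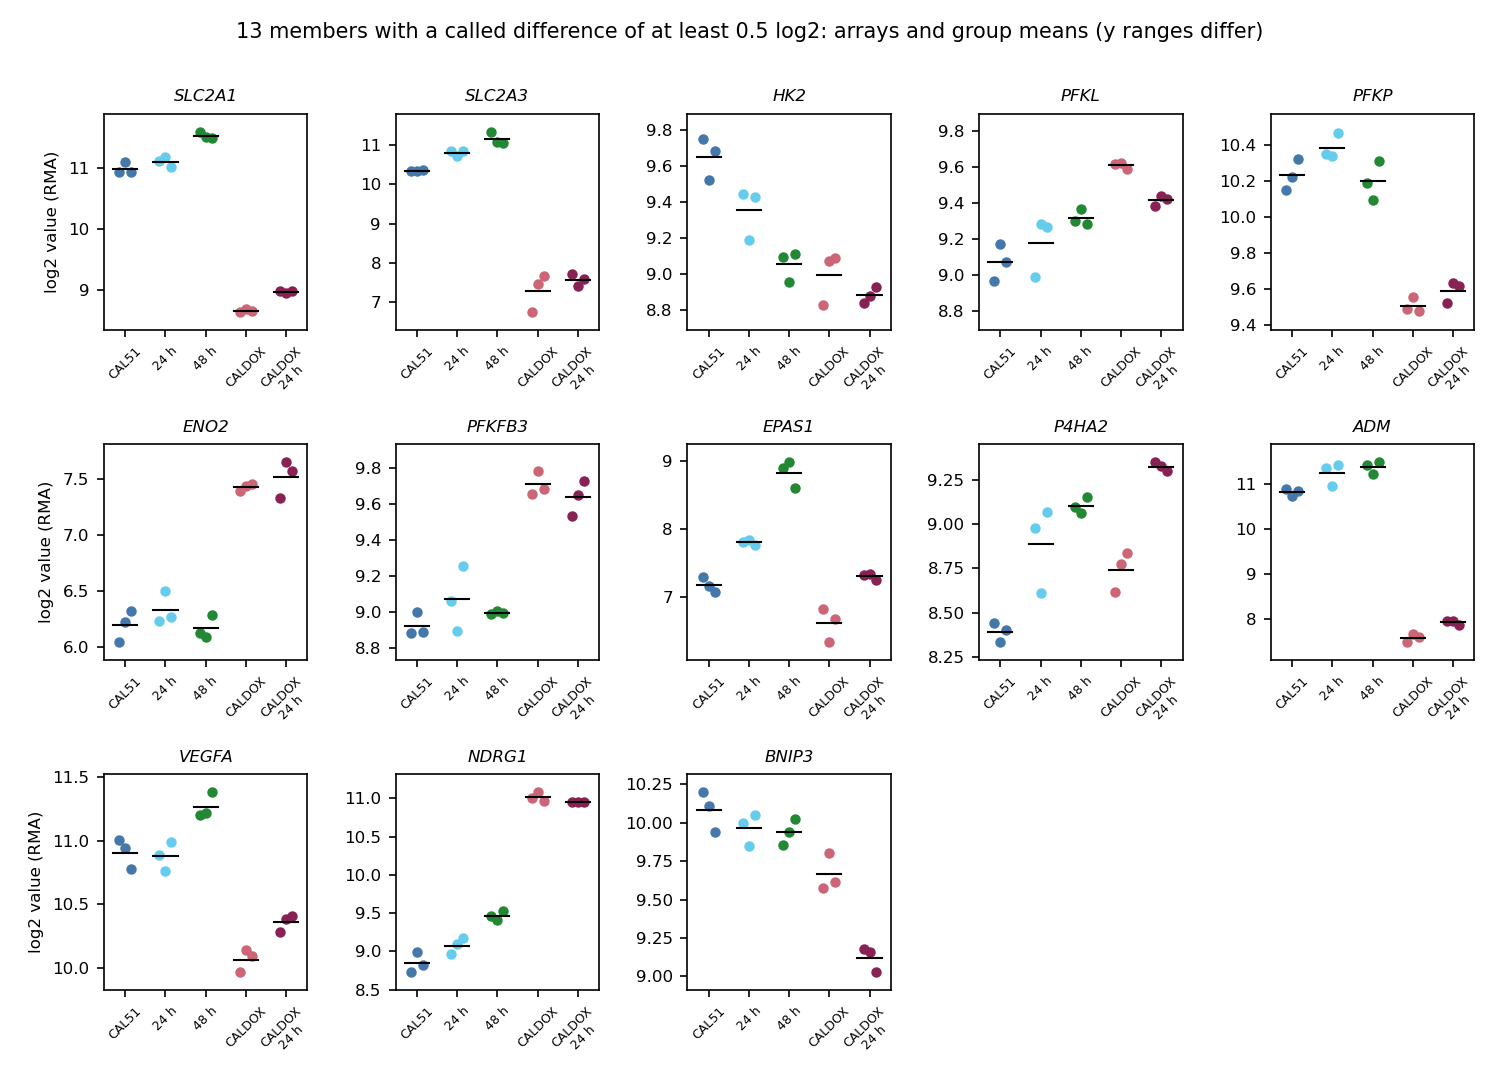
Log2 values (RMA, vertical axis) on each array (points) with group means (bars) for the 13 members with a called difference of at least 0.5 log2 units in at least 1 comparison, over the 5 groups (horizontal axis). Vertical ranges differ between panels. The CALDOX arrays of SLC2A1, SLC2A3, PFKP, ADM and VEGFA lie below all CAL51 arrays, and those of PFKL, ENO2, PFKFB3 and NDRG1 lie above them.

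Among the 14 glycolytic enzymes, CALDOX showed 2 higher and 6 lower genes (57.1%, against 25.9% of all genes), with a median difference of -0.13. In CAL51, 1 fell and none rose at 24 h (7.14%, against 10.1%), and 2 rose and 1 fell at 48 h (21.4%, against 21.6%), shares near the background. None was called in treated CALDOX, where 10.3% of all genes were. GPI, PFKM, ALDOA, ALDOC, TPI1 and ENO1, which act in the upper pathway, the splitting of the sugar and the step before pyruvate kinase, were called in no comparison.

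HK2 encodes the inducible hexokinase bound to mitochondria in many tumours. Its values were 9.75, 9.52 and 9.68 in untreated CAL51, 9.44, 9.19 and 9.43 at 24 h, and 9.09, 8.96 and 9.11 at 48 h. Each later group lay wholly below the earlier one. HK2 fell by 0.30 ± 0.09 at 24 h (adjusted p = 0.0428) and by 0.60 ± 0.09 at 48 h (adjusted p = 0.000113), and between 24 h and 48 h it fell by 0.30 ± 0.09 (adjusted p = 0.0415). In untreated CALDOX the values were 8.83, 9.07 and 9.09, a fall of 0.66 ± 0.09 (adjusted p = 2.46e-05) from untreated CAL51. Treated CALDOX, at 8.84, 8.87 and 8.92, overlapped with untreated CALDOX (-0.12 ± 0.09, adjusted p = 0.533). The 24 h call and the 48 h against 24 h call did not hold without any 1 of 9 arrays (adjusted p of 0.0507 to 0.156 and 0.0505 to 0.158), nor with only the compared arrays (0.134 and 0.125), median centring (0.067 and 0.0689) or the mean of the gene's probe sets (0.405 and 0.0993). The other 2 probe sets gave -0.06 and -0.11 at 48 h, neither called, and -0.30 (adjusted p = 0.0204) and -0.13 between the lines. With the mean of the probe sets, HK2 differed by -0.25 at 48 h (adjusted p = 0.00516) and by -0.36 between the lines (adjusted p = 0.000214). HK1, the constitutive hexokinase, moved the other way in CAL51: it rose by 0.25 ± 0.06 at 48 h (adjusted p = 0.00582), and it was lower in CALDOX by -0.22 ± 0.06 (adjusted p = 0.0114).

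The isoforms of phosphofructokinase, the committed step of glycolysis, went in opposite directions between the lines. PFKL, the liver-type subunit, was 8.97, 9.17 and 9.08 in untreated CAL51 and 9.62, 9.63 and 9.59 in untreated CALDOX, a rise of 0.54 ± 0.07 (adjusted p = 3.47e-05). PFKP, the platelet-type subunit, was 10.15, 10.22 and 10.32 in untreated CAL51 and 9.49, 9.55 and 9.48 in untreated CALDOX, a difference of -0.73 ± 0.07 (adjusted p = 5.05e-07). PFKM, the muscle-type subunit, differed by -0.11 ± 0.06 (adjusted p = 0.216). The other PFKP probe set differed by -0.03 between the lines, so the PFKP result rests on the brighter probe set. Under treatment PFKL was 8.99, 9.28 and 9.27 at 24 h, 9.30, 9.37 and 9.29 at 48 h and 9.38, 9.44 and 9.42 in treated CALDOX. It rose at 48 h by 0.25 ± 0.07 (adjusted p = 0.026), a call lost without any 1 of 4 arrays (untreated replicates 1 and 3, 48 h replicates 1 and 2; adjusted p of 0.0546 to 0.117). PFKP was 10.35, 10.34 and 10.47 at 24 h, 10.19, 10.09 and 10.31 at 48 h and 9.52, 9.63 and 9.61 in treated CALDOX, with no call under treatment.

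PFKFB3 makes a regulatory form of fructose bisphosphate, which activates phosphofructokinase allosterically and is not its product. Its values were 8.88, 9.00 and 8.89 in untreated CAL51, 9.06, 8.90 and 9.26 at 24 h and 8.99, 9.01 and 9.00 at 48 h. In CALDOX they were 9.66, 9.79 and 9.68 untreated and 9.53, 9.65 and 9.73 treated. Every CALDOX array lay above every CAL51 array, and the difference of the untreated lines was 0.79 ± 0.08 (adjusted p = 1.4e-06), or 1.73-fold. Treatment called PFKFB3 in neither line, and its relative PFKFB4 was called in no comparison (at 24 h it passed with the mean of its probe sets, -0.33, adjusted p = 0.00618), with a difference of -0.04 ± 0.10 between the lines (adjusted p = 0.854).

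In the payoff phase, where ATP is made, the enolase isoforms parted. ENO2, the neuron-type enolase, was 6.04, 6.22 and 6.32 in untreated CAL51 and 7.39, 7.43 and 7.46 in untreated CALDOX. It rose 2.35-fold (1.23 ± 0.10, adjusted p = 5.07e-08), and it was near its untreated level in each line under drug, at 6.23, 6.50 and 6.26 at 24 h, 6.12, 6.08 and 6.28 at 48 h, and 7.33, 7.65 and 7.57 in treated CALDOX. ENO1, the main enolase, differed between the lines by -0.14 ± 0.06 (adjusted p = 0.116), and passed with repeated quantile normalization (0.00836) and with a trended robust prior (0.0269). The other payoff enzymes were lower in CALDOX by smaller amounts. PGK1, phosphoglycerate kinase, fell by 0.21 ± 0.06 (adjusted p = 0.0139) and PGAM1, phosphoglycerate mutase, fell by 0.15 ± 0.05 (adjusted p = 0.0433). The other 5 PGK1 probe sets were also lower (range -0.45 to -0.23), and 3 of them were called, while PGAM1 had no other. PKM, the pyruvate kinase of most tumours, fell by 0.42 ± 0.07 (adjusted p = 0.000124), but its other probe set differed by -0.01. The PGAM1 call was lost without any 1 of 9 arrays (adjusted p of 0.0576 to 0.136), with only the compared arrays (0.117) with median centring (0.0951) and with the replicate block (0.064), the PGK1 call without untreated CALDOX replicate 1 (0.0636), and the HK1 call without that array or without untreated CAL51 replicate 3 (0.0575 to 0.0606).

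LDHA, which makes lactate from pyruvate, was slightly lower in CALDOX, at a bright level where compression of differences was not tested. Its values were 13.80, 13.70 and 13.71 in untreated CAL51 and 13.45, 13.45 and 13.53 in untreated CALDOX, a fall of 0.26 ± 0.06 (adjusted p = 0.00241). Under treatment LDHA differed by 0.01 ± 0.06 at 24 h (adjusted p = 0.964), 0.02 ± 0.06 at 48 h (adjusted p = 0.846) and -0.03 ± 0.06 in CALDOX (adjusted p = 0.881). LDHB, the isoform that favours the return of lactate to pyruvate, differed between the lines by 0.13 ± 0.06 (adjusted p = 0.154) and was called in no comparison.

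PDK1 encodes a kinase that shuts pyruvate dehydrogenase and is a classical HIF target. Its values spread widely, at 8.51, 8.01 and 8.31 in untreated CAL51, 8.04, 7.63 and 8.28 at 24 h, 7.86, 7.76 and 8.31 at 48 h, 8.08, 8.32 and 8.34 in untreated CALDOX and 7.88, 8.02 and 7.95 in treated CALDOX. The CAL51 groups overlapped, and no comparison called PDK1 on its brightest probe set. Its differences were -0.29 ± 0.16 at 24 h (adjusted p = 0.318), -0.30 ± 0.16 at 48 h (0.225), -0.03 ± 0.16 between the lines (0.938) and -0.30 ± 0.16 in treated CALDOX (0.331). The result depends on the probe set: a second one fell by 0.27 at 24 h (adjusted p = 0.0455) and by 0.35 ± 0.08 at 48 h (adjusted p = 0.00528). With the mean of the probe sets PDK1 passed at 24 h (-0.26, adjusted p = 0.0389) and 48 h (-0.29, adjusted p = 0.0108), and with only the compared arrays in treated CALDOX (adjusted p = 0.039). PDK3 was called in no comparison, but passed with the mean of its probe sets at 48 h (-0.15, adjusted p = 0.0249) and between the lines (-0.13, adjusted p = 0.0338).

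The HIF alpha subunits behaved differently from each other. HIF1A, the alpha subunit found in nearly all cells, was 11.62, 11.46 and 11.43 in untreated CAL51, 11.51, 11.31 and 11.52 at 24 h, 11.45, 11.38 and 11.52 at 48 h, 11.38, 11.65 and 11.49 in untreated CALDOX and 11.38, 11.46 and 11.37 in treated CALDOX. All 5 groups overlapped. The line difference was 0.00 (95% interval -0.17 to 0.17) and that at 48 h -0.05 (-0.22 to 0.12), and no comparison called the gene.

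EPAS1 encodes the alpha subunit of HIF2, best known from endothelial and kidney cells. Its values were 7.29, 7.17 and 7.08 in untreated CAL51, 7.81, 7.84 and 7.76 at 24 h, and 8.89, 8.98 and 8.61 at 48 h. In CALDOX they were 6.83, 6.34 and 6.69 untreated and 7.32, 7.34 and 7.25 treated. Each treated group lay above its untreated group without overlap, and the untreated CALDOX arrays lay below all others. EPAS1 rose by 0.63 ± 0.11 at 24 h (adjusted p = 0.00143) and by 1.64 ± 0.11 at 48 h (adjusted p = 3.39e-08), or 3.13-fold, and between 24 h and 48 h by 1.02 ± 0.11 (adjusted p = 6e-05). In treated CALDOX it rose by 0.69 ± 0.11 (adjusted p = 0.000625). Between the untreated lines it fell by 0.56 ± 0.11 (adjusted p = 0.000941). The size of these values depends on the probe set: at 48 h the others gave 0.24 ± 0.07 (adjusted p = 0.0284) and -0.09 ± 0.10 (adjusted p = 0.638), and between the lines -0.01 and -0.07. With the mean of the gene's probe sets the 24 h call was lost (adjusted p = 0.14). In treated CALDOX the other 2 probe sets gave 0.0068 and 0.0091, neither called. The mean of the probe sets gave 0.23 there, at the threshold (adjusted p = 0.05).

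**Figure D3:**
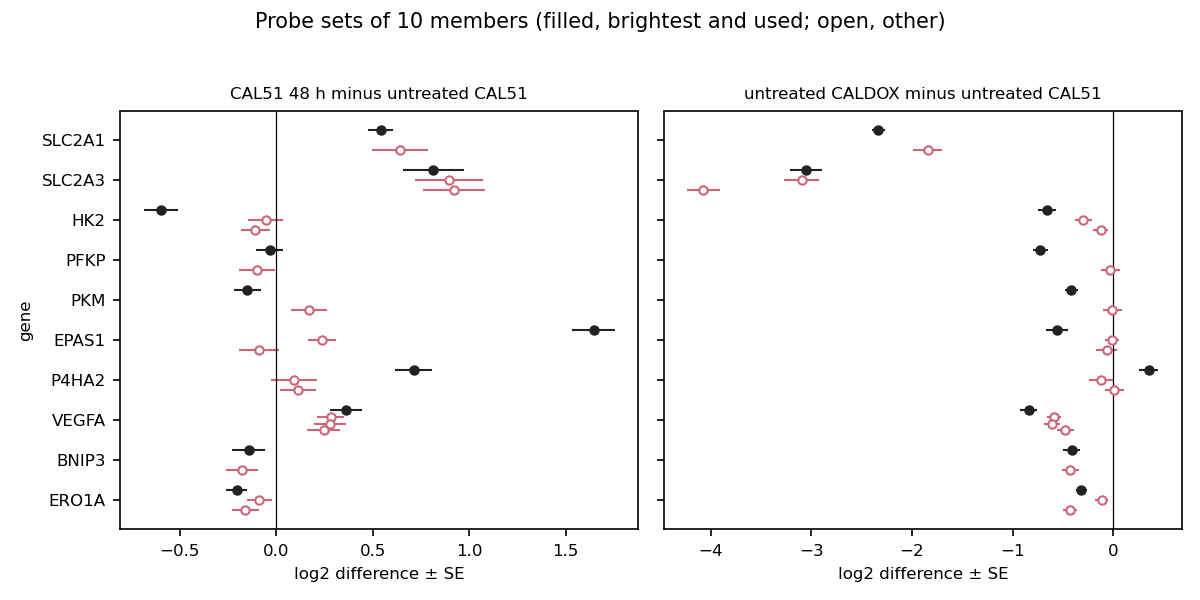
Log2 differences (horizontal axis, bars are the limma SE, n = 3 arrays per group) of each probe set of 10 members in CAL51 at 48 h (left) and between the untreated lines (right). Filled points are the brightest probe set, which was used, and open points the others. The probe sets of SLC2A1, SLC2A3 and VEGFA lie on the same side of 0, while those of EPAS1, P4HA2, PFKP and PKM differ in size. Another EPAS1 probe set at 48 h (-0.09) and another P4HA2 probe set between the lines (-0.13) lie below 0, where the one used lies above.

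The genes for oxygen-dependent hydroxylases split into called and uncalled members. P4HA2 encodes a catalytic subunit of the collagen prolyl hydroxylase. Its values were 8.44, 8.33 and 8.40 in untreated CAL51, 8.98, 8.61 and 9.07 at 24 h, 9.10, 9.06 and 9.15 at 48 h, 8.62, 8.77 and 8.84 in untreated CALDOX and 9.35, 9.33 and 9.30 in treated CALDOX. Untreated CAL51 lay below every other group. P4HA2 rose by 0.50 ± 0.09 at 24 h (adjusted p = 0.00273), 0.71 ± 0.09 at 48 h (adjusted p = 4.14e-05), 0.58 ± 0.09 in treated CALDOX (adjusted p = 0.000682) and 0.35 ± 0.09 between the untreated lines (adjusted p = 0.0102). Its other probe sets gave 0.09 and 0.11 at 48 h and -0.13 and 0.01 between the lines. With their mean, the calls at 24 h (adjusted p = 0.576), between the lines (0.57) and in treated CALDOX (0.147) were lost. The line call was also lost without untreated CALDOX replicate 3 (0.0539). P4HA1, an alternative catalytic subunit, instead fell by 0.37 ± 0.07 between the lines (adjusted p = 0.00107). Its other probe set gave -0.11 there and was not called.

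KDM3A, a histone demethylase induced by HIF, was called in treated CALDOX only, where it fell by 0.40 ± 0.07 (adjusted p = 0.00193) from 9.14, 9.34 and 9.25 to 8.87, 8.79 and 8.89. The corresponding difference in CAL51 at 24 h was -0.08 ± 0.07, and the test of the difference between the responses did not pass (-0.32 ± 0.10, adjusted p = 0.192). The other KDM3A probe set gave -0.09 in treated CALDOX and was not called. EGLN1 and EGLN3, the hydroxylases that mark HIF alpha, were called in no comparison. Their line differences were -0.07 ± 0.11 (adjusted p = 0.739) and -0.02 ± 0.09 (adjusted p = 0.891).

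The other 8 HIF targets tested were mostly higher after 48 h in CAL51, where 6 rose and 1 fell with a median of 0.33 (all genes, 10.5% higher and 11.2% lower). They were mostly lower in untreated CALDOX, where 1 rose and 5 fell with a median of -0.32 (all genes, 14.2% higher and 11.7% lower). With the hydroxylase and demethylase genes added, 13 genes had a median of 0.25 at 48 h (7 rose, 1 fell). Between the lines the median of these 13 was -0.07 (2 rose, 6 fell). ADM encodes adrenomedullin, a secreted peptide that widens blood vessels. It was 10.90, 10.74 and 10.86 in untreated CAL51, 11.35, 10.96 and 11.43 at 24 h and 11.43, 11.23 and 11.50 at 48 h, and 7.50, 7.67 and 7.61 in untreated and 7.96, 7.97 and 7.87 in treated CALDOX. Every CALDOX array lay below every CAL51 array. ADM fell by 3.25 ± 0.10 between the untreated lines (adjusted p = 1.16e-12), which is 9.48-fold. It rose by 0.41 ± 0.10 at 24 h (adjusted p = 0.0192), 0.55 ± 0.10 at 48 h (adjusted p = 0.00108) and 0.34 ± 0.10 in treated CALDOX (adjusted p = 0.0496). The 24 h call was lost without untreated CAL51 replicate 2 or without 24 h replicates 1 or 3 (adjusted p of 0.0778 to 0.0894) and with only the compared arrays (0.104), and the treated CALDOX call without any 1 of 11 arrays (0.0554 to 0.17) and with median centring (0.0909).

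VEGFA, the main growth factor for blood vessels, was 11.00, 10.94 and 10.77 in untreated CAL51, 10.89, 10.76 and 10.99 at 24 h and 11.20, 11.22 and 11.38 at 48 h. The 24 h arrays overlapped the untreated ones (-0.03 ± 0.08, adjusted p = 0.897), and the 48 h arrays lay above both. VEGFA rose by 0.36 ± 0.08 from untreated (adjusted p = 0.00337) and by 0.39 ± 0.08 from 24 h to 48 h (adjusted p = 0.00542, and 0.0527 with only the compared arrays). In CALDOX it was 9.96, 10.14 and 10.09 untreated and 10.28, 10.38 and 10.41 treated, below all CAL51 arrays. The line difference was -0.84 ± 0.08 (adjusted p = 5.43e-07), with -0.61 to -0.48 in the other 3 probe sets, all called. The rise in treated CALDOX was 0.29 ± 0.08 (adjusted p = 0.0256) and was lost without untreated CALDOX replicates 1 or 3 or treated replicates 2 or 3 (adjusted p of 0.0618 to 0.114) and with median centring (0.0504).

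NDRG1 is a stress- and hypoxia-induced gene linked to growth arrest and differentiation, and it went against ADM and VEGFA in CALDOX. Its values were 8.73, 8.99 and 8.82 in untreated CAL51, 8.96, 9.09 and 9.18 at 24 h, 9.46, 9.41 and 9.53 at 48 h, 11.00, 11.08 and 10.97 in untreated CALDOX and 10.95, 10.96 and 10.95 in treated CALDOX. CALDOX arrays lay above all CAL51 arrays. NDRG1 rose 4.50-fold between the untreated lines (2.17 ± 0.07, adjusted p = 1.81e-12) and by 0.62 ± 0.07 at 48 h (adjusted p = 1.12e-05), of which 0.39 ± 0.07 came between 24 h and 48 h (adjusted p = 0.00275). Treatment of CALDOX gave -0.06 ± 0.07 (adjusted p = 0.729).

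BNIP3 and BNIP3L, receptors for the removal of mitochondria by autophagy, differed in pattern. BNIP3 was 10.20, 10.11 and 9.94 in untreated CAL51, 10.00, 9.85 and 10.05 at 24 h and 9.85, 9.94 and 10.03 at 48 h, with overlapping groups. In CALDOX it was 9.58, 9.80 and 9.62 untreated and 9.18, 9.16 and 9.03 treated, each group below the one before. It fell by 0.42 ± 0.08 between the lines (adjusted p = 0.00128) and by 0.54 ± 0.08 in treated CALDOX (adjusted p = 0.000492). BNIP3L rose by 0.37 ± 0.05 in CAL51 at 48 h (adjusted p = 0.000105), with 0.45 ± 0.05 between 24 h and 48 h (adjusted p = 0.000119), and fell by 0.21 ± 0.05 in treated CALDOX (adjusted p = 0.0178). The last call was lost without untreated CALDOX replicate 1 or treated CALDOX replicates 1 or 2 (adjusted p of 0.0639 to 0.0736).

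CA12 encodes a membrane carbonic anhydrase that handles acid at the cell surface. It was 11.18, 11.16 and 11.19 in untreated CAL51, 11.21, 11.24 and 11.35 at 24 h and 11.44, 11.39 and 11.46 at 48 h, and 11.09, 11.15 and 11.14 in untreated and 10.85, 10.84 and 10.86 in treated CALDOX. It rose in CAL51 at 48 h by 0.25 ± 0.05 (adjusted p = 0.00212) and fell in treated CALDOX by 0.28 ± 0.05 (adjusted p = 0.00246). Of the 6 other CA12 probe sets, 2 were called the same way at 48 h (range -0.02 to 0.25). In treated CALDOX 3 of the 6 were (range -0.28 to 0.04). With the mean of the probe sets the differences were 0.17 and -0.17, both still called. ANKRD37, a small HIF-induced ankyrin repeat gene, rose by 0.40 ± 0.08 at 24 h (adjusted p = 0.00524) and 0.29 ± 0.08 at 48 h (adjusted p = 0.0201) and fell by 0.32 ± 0.08 between the lines (adjusted p = 0.00873). The last 2 calls were lost without 1 array (48 h: untreated CAL51 replicate 3 or 48 h replicate 3, 0.062 to 0.08; lines: untreated CALDOX replicate 2, 0.0548). The other ANKRD37 probe set gave 0.04 at 24 h, 0.16 at 48 h and -0.08 between the lines, none of them called. ERO1A, an oxidase of the endoplasmic reticulum, fell by 0.21 ± 0.05 at 48 h (adjusted p = 0.00819, and 0.0587 with only the compared arrays) and by 0.32 ± 0.05 between the lines (adjusted p = 0.000154).

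**Figure D4:**
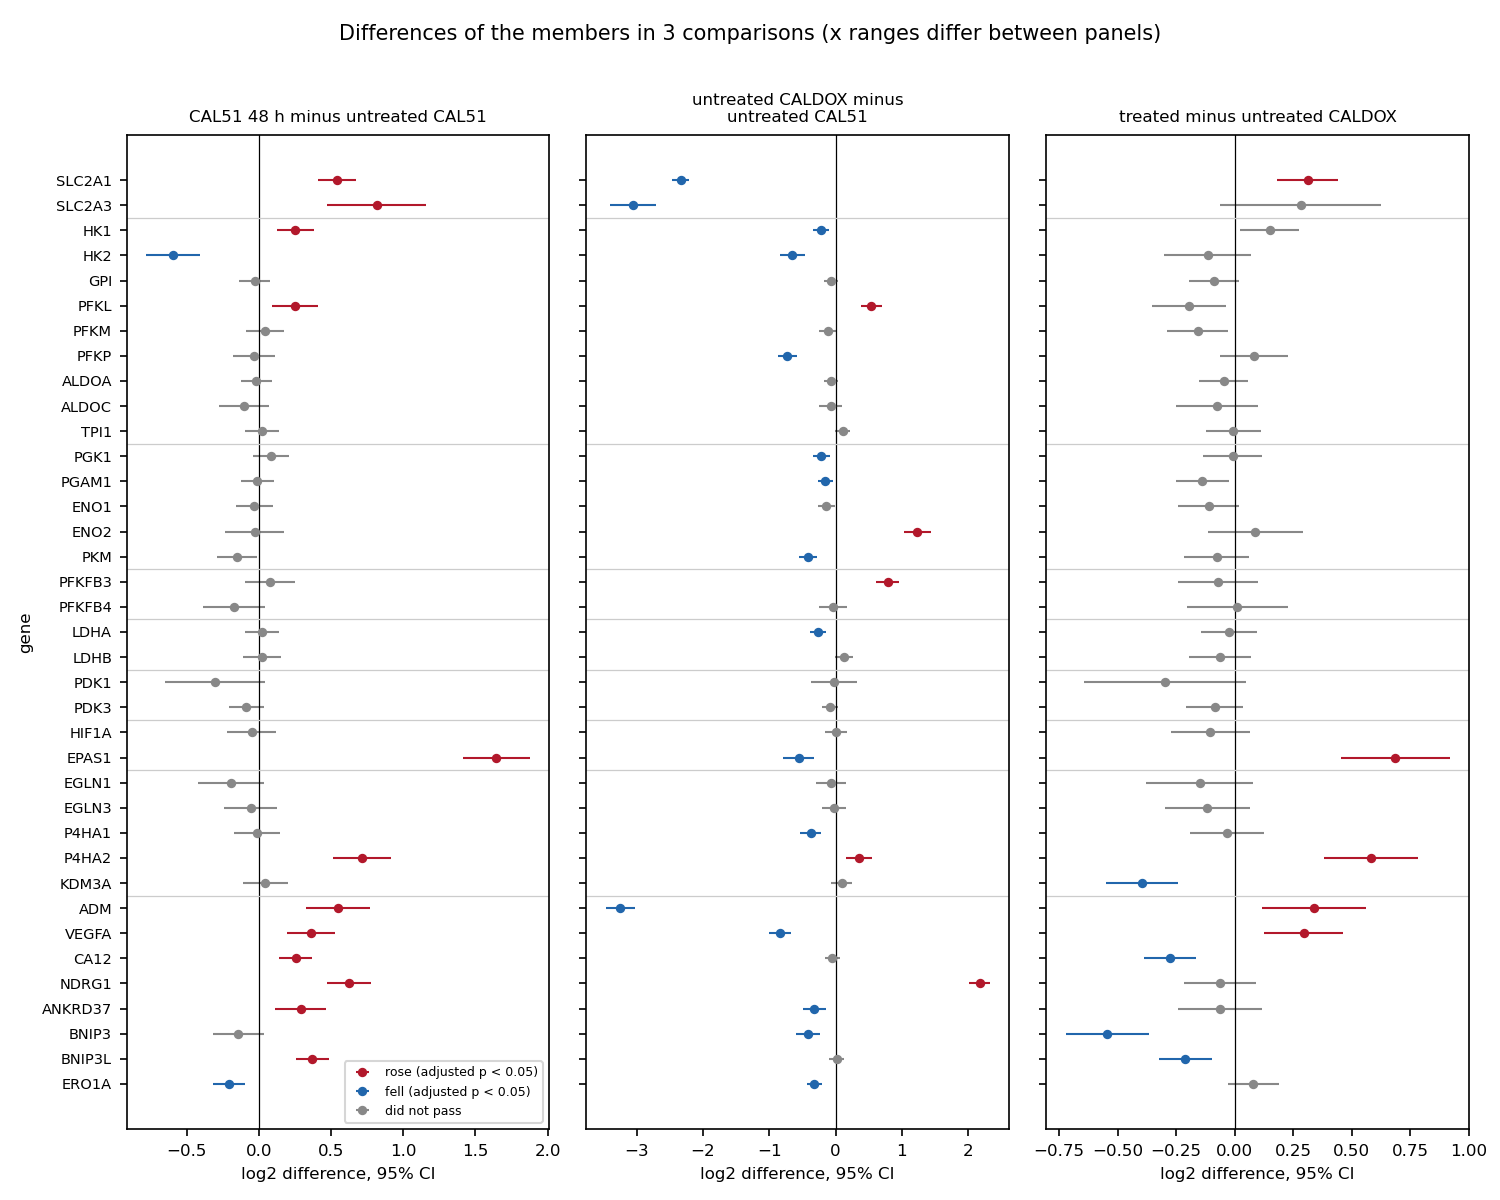
Log2 difference (points) with its 95% interval (bars) for each of the 37 members in CAL51 at 48 h, between the untreated lines and in treated CALDOX, from limma over 15 arrays. Red genes rose, blue genes fell and grey genes did not pass an adjusted p under 0.05, and horizontal ranges differ between panels. The line comparison has 16 blue and 5 red genes, the 48 h comparison 2 and 12.

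Between 24 h and 48 h in CAL51, 5 members rose and 1 fell (16.2%), where 9.71% of all genes were called, 4.37% higher and 5.34% lower. The 24 h and 48 h arrays did not overlap for 15 members (23.1% of all genes). The risers were SLC2A1, EPAS1, VEGFA, NDRG1 and BNIP3L, and HK2 fell. The 48 h and 24 h comparisons share the untreated CAL51 arrays, and so does the comparison of the lines, so their values are given side by side only. SLC2A1, SLC2A3, HK1, ADM, VEGFA, EPAS1 and ANKRD37 had a called rise at 48 h in CAL51 and a called fall in CALDOX, while PFKL, P4HA2 and NDRG1 had called rises in both, and HK2 and ERO1A called falls in both.

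CAL51 at 48 h and treated CALDOX share no array with each other's comparison, although dose and time differ between them (0.4 µM for 48 h and 4 µM for 24 h). The 5 members that rose in treated CALDOX, SLC2A1, EPAS1, P4HA2, ADM and VEGFA, were all among the 12 that rose in CAL51 at 48 h, which is 100% of the first list and 41.7% of the second. For all genes, 678 of the 954 that rose in treated CALDOX also rose in CAL51 at 48 h, 71.1% of the first and 32.7% of the second. The members' shares were not tested against those of all genes. In treated CALDOX no other probe set of SLC2A1, EPAS1 or P4HA2 was called, and ADM had no other.

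CALDOX and CAL51 differed in their 24 h response by a called amount for 1 member, where CALDOX was lower (2.70%, against 0.855% of all genes lower and 1.43% in either direction), with doses of 4 µM in CALDOX and 0.4 µM in CAL51. CA12 differed by -0.37 ± 0.07 (95% interval -0.52 to -0.21, adjusted p = 0.02), with 0.09 ± 0.05 in CAL51 and -0.28 ± 0.05 in CALDOX. This call was lost without 24 h CAL51 replicate 3, untreated CALDOX replicate 2 or 3, or any 1 of the 3 treated CALDOX arrays (adjusted p of 0.0557 to 0.0647). Of the 6 other CA12 probe sets, 2 were called the same way (range -0.40 to -0.05). For the other members, a p above the threshold does not show that the lines responded alike. ANKRD37 (-0.47 ± 0.12, adjusted p = 0.0676) and BNIP3 (-0.43 ± 0.12, adjusted p = 0.106) had larger differences than CA12 that did not pass, although both passed with repeated quantile normalization (0.0442 and 0.0342) and with a trended robust prior (0.0497 and 0.0369). VEGFA differed by 0.32 ± 0.11 (adjusted p = 0.241). For EPAS1, which was called in each line on its brightest probe set, the difference was 0.06 ± 0.16 (interval -0.27 to 0.39).

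Beyond the members, 92 further genes of the surrounding pathways were tested. In CAL51, 15 rose and 3 fell at 24 h (19.6%, against 10.1% of all genes), 25 rose and 10 fell at 48 h (38.0%, against 21.6%), and 10 rose and 4 fell between the times (15.2%, against 9.71%). Between the untreated lines 21 rose and 20 fell (44.6%, against 25.9%), and in treated CALDOX 8 rose and 5 fell (14.1%, against 10.3%). The counts of the single lists that follow are to be read against the same shares of all genes. Up to 4 called genes of each list with the largest differences are named, and a few others, chosen after their values were seen, are named where a count needs them.

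Of 13 other glycolytic enzymes tested, 1 rose at 24 h, 3 rose and 1 fell at 48 h, 2 rose between the times, 3 fell in CALDOX and 1 rose in treated CALDOX (7.69%, 30.8%, 15.4%, 23.1% and 7.69% of the list). HKDC1, a hexokinase-like gene, rose in CAL51 by 0.38 ± 0.09 at 24 h (adjusted p = 0.0133) and 0.80 ± 0.09 at 48 h (adjusted p = 9.31e-06), and in treated CALDOX by 0.46 ± 0.09 (adjusted p = 0.00361), while HK2 did not rise in any of these. BPGM, which makes the red-cell effector bisphosphoglycerate, rose by 0.49 ± 0.11 at 48 h and fell by 0.62 ± 0.11 in CALDOX. PGM1, phosphoglucomutase, rose by 0.36 ± 0.07 at 48 h, ADPGK, an ADP-dependent glucokinase, fell by 0.34 ± 0.06 at 48 h and 0.30 ± 0.06 in CALDOX, and ENO3, muscle enolase, fell by 0.34 ± 0.08 in CALDOX.

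Of 11 genes for the entry of pyruvate into mitochondria, 3 rose and 3 fell between the lines (54.5%). PDK4, a pyruvate dehydrogenase kinase linked to fasting, was 4.97, 4.39 and 5.08 in untreated CAL51 and 6.29, 6.80 and 6.60 in untreated CALDOX, a rise of 1.75 ± 0.16 (adjusted p = 3.8e-07) from a dim level, whereas PDK1 and PDK3 were not called. MPC1 and MPC2, the subunits of the mitochondrial pyruvate carrier, rose by 0.34 ± 0.06 and 1.02 ± 0.09 (adjusted p = 0.000203 and 1.83e-07). PDHB, a pyruvate dehydrogenase subunit, fell by 0.43 ± 0.06 in CALDOX and by 0.29 ± 0.06 in CAL51 at 24 h, and PDHA1 and DLAT, subunits of the same complex, also fell in CALDOX. At 48 h MPC2 rose by 0.43 ± 0.09, MPC1 rose by 0.19 ± 0.06 and DLAT fell by 0.24 ± 0.06, and in treated CALDOX none of the 11 was called.

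Of 11 pentose phosphate pathway genes, 4 rose and 1 fell in CALDOX (45.5%). PGD, phosphogluconate dehydrogenase, was 11.65, 11.65 and 11.60 in untreated CAL51 and 12.57, 12.60 and 12.56 in untreated CALDOX, a rise of 0.94 ± 0.05 (adjusted p = 4.19e-10). TALDO1, transaldolase, rose by 0.50 ± 0.06. PRPS2, which makes the ribose donor of nucleotides, rose by 0.34 ± 0.08, but its other probe set was called the opposite way, and H6PD, the enzyme of the endoplasmic reticulum, rose by 0.29 ± 0.09. The H6PD call was lost with the mean of its probe sets (0.03, adjusted p = 0.749) and without untreated CAL51 replicate 2 (0.0755) or untreated CALDOX replicate 1 (0.0576). In CAL51 at 48 h PRPS2 fell by 0.35 ± 0.08, RPE, an epimerase, fell by 0.20 ± 0.06, and TKT, transketolase, rose by 0.24 ± 0.07. PRPS2 and RPE also fell between 24 h and 48 h, and RPE was the gene that fell in CALDOX (-0.18 ± 0.06, adjusted p = 0.0287).

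TIGAR, a p53 target that lowers the regulatory form of fructose bisphosphate and diverts glucose to this pathway, was the pathway gene with the largest rise at 24 h and at 48 h. It was 9.70, 9.58 and 9.63 in untreated CAL51, 11.01, 10.87 and 10.96 at 24 h and 11.14, 11.01 and 11.08 at 48 h, and 9.59, 9.64 and 9.56 in untreated and 10.39, 10.48 and 10.46 in treated CALDOX. It rose by 1.31 ± 0.06 at 24 h (adjusted p = 1.08e-09), 1.44 ± 0.06 at 48 h (adjusted p = 1.73e-10) and 0.84 ± 0.06 in treated CALDOX (adjusted p = 3.62e-07), and the untreated lines differed by -0.04 ± 0.06. The rise was smaller in CALDOX, by a tested difference of -0.46 ± 0.09 (adjusted p = 0.0109). PGD rose in treated CALDOX by 0.21 ± 0.05, without another probe set called.

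Of 12 other sugar and monocarboxylate transport genes, 3 rose at 24 h and 3 at 48 h (25% each). SLC2A12, a further glucose transporter, rose by 0.72 ± 0.07 at 24 h (adjusted p = 3.07e-06), 1.20 ± 0.07 at 48 h (adjusted p = 5.31e-09) and 0.77 ± 0.07 in treated CALDOX (adjusted p = 2.61e-06), and fell by 0.27 ± 0.07 between the lines. ARRDC4, an arrestin that limits glucose uptake, rose by 0.53 ± 0.13 at 24 h and 0.61 ± 0.13 at 48 h. SLC2A8 rose by 0.23 ± 0.07 at 24 h, a call lost without some arrays, SLC2A6 by 0.36 ± 0.07 at 48 h, and TXNIP, another arrestin that limits uptake, rose by 0.28 ± 0.06 in CALDOX.

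Of 14 other regulators of HIF, 2 rose and 4 fell in CALDOX (42.9%). ARNT2, a partner of HIF alpha subunits best known from neurons, was 8.99, 8.94 and 9.12 in untreated CAL51 and 6.96, 6.59 and 6.50 in untreated CALDOX, 5.04-fold lower (-2.33 ± 0.13, adjusted p = 1.06e-09). It fell by a further 0.57 ± 0.13 in treated CALDOX (adjusted p = 0.00979), a call lost without untreated replicate 1 or treated replicates 1 or 3 (adjusted p of 0.0515 to 0.0599). ARNT, the usual partner, fell by 0.26 ± 0.06, but 1 of its other probe sets was called the opposite way. HIF1AN, the asparagine hydroxylase of HIF alpha, and ELOC, a partner of ELOB, also fell in CALDOX, each by 0.22 ± 0.07. ELOB, which serves the VHL ubiquitin ligase, rose by 0.81 ± 0.06 in CALDOX, 0.42 ± 0.06 at 48 h and 0.25 ± 0.06 at 24 h, and CREBBP, a coactivator, rose by 0.45 ± 0.08 in CALDOX. At 48 h CITED2, which competes with HIF for its coactivators, rose by 0.47 ± 0.10, and HSP90AA1, a chaperone of HIF alpha, fell by 0.20 ± 0.05. At 24 h ARNT fell by 0.21 ± 0.06 (adjusted p = 0.0435), and without some single arrays this did not pass.

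Of 31 further hypoxia targets, 9 rose and 1 fell at 24 h (32.3%), 13 rose and 5 fell at 48 h (58.1%), 11 rose and 8 fell in CALDOX (61.3%), and 4 rose and 4 fell in treated CALDOX (25.8%). BHLHE40, a hypoxia-induced repressor, was 8.04, 8.01 and 7.72 in untreated CAL51 and 10.53, 10.71 and 10.66 in untreated CALDOX, a rise of 2.71 ± 0.09 (adjusted p = 1.79e-12). LOX, which cross-links collagen, fell by 2.18 ± 0.09 (adjusted p = 2.29e-11), AK4, a mitochondrial adenylate kinase, fell by 1.76 ± 0.11 (adjusted p = 4.16e-09), and PLOD2, a collagen lysyl hydroxylase, fell by 1.65 ± 0.10 (adjusted p = 3.41e-09). As among the members, the targets changed in both directions between the lines, and the median of the 31 was 0.06.

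Under treatment of CAL51, PLOD2 rose by 0.74 ± 0.10 at 24 h and 0.78 ± 0.10 at 48 h, and STC1, a secreted glycoprotein, rose by 0.63 ± 0.07 and 1.10 ± 0.07. KLF10, a transcription factor, rose by 0.49 ± 0.14 and 1.09 ± 0.14. Its 24 h call was lost with only the compared arrays (0.113), with the replicate block (0.0528) and without untreated CAL51 replicate 2 or 3 or 24 h replicate 1 or 3 (0.0646 to 0.164). DDIT4, an inhibitor of mTOR signalling, rose by 0.73 ± 0.07 at 48 h, and BHLHE40 rose by 0.55 ± 0.09 between 24 h and 48 h. STC2, a relative of STC1, fell by 0.57 ± 0.10 at 24 h. In treated CALDOX GYS1, glycogen synthase, and MXI1, a MYC antagonist, each rose by 0.46 (SE 0.06 and 0.07), ZNF395 fell by 0.46 ± 0.12, and LOXL2, a relative of LOX, fell by 0.57 ± 0.06 (adjusted p = 1.52e-05). LOXL2 also passed the test of the difference of responses (-0.52 ± 0.08, adjusted p = 0.00408), which was lost with the mean of its probe sets (adjusted p = 0.489). Of the 76 calls of these named pathway genes, 34 had another probe set called the same way, 2 had another called the opposite way and 21 had no other, and 27 were lost under at least 1 alternative. These 27 were HKDC1, PDHB, ARRDC4, SLC2A8, ELOB, ARNT and KLF10 at 24 h, DLAT, MPC1, TKT, RPE and HSP90AA1 at 48 h, PGM1, PRPS2, RPE, CITED2, HSP90AA1 and KLF10 between the times, MPC1, PRPS2, H6PD, ARNT and CREBBP between the lines, ARNT2, PGD and ZNF395 in treated CALDOX, and LOXL2 for the difference of responses.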

How the data were processed

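RNA of 15 cultures was labelled as biotinylated cRNA and hybridized to Affymetrix arrays of 54675 probe sets, per the labels' protocols. The deposited values are log2 intensities from RMA, run by the authors per the submitters' processing notes. Their log base was read from the range, 3.083 to 14.762, and no source used here gives RMA's version. RMA quantile normalizes the arrays, so a change shared by most genes would be removed. Nothing was normalized again.

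Of the probe sets, 41097 had 1 gene symbol, 1801 had several and 11777 none, and 62 were controls. Each of 19775 genes was read from its brightest single-symbol probe set. In limma 3.58.1 (R 4.3.3), a model with 1 mean per group took in the 15 arrays (10 residual and 5.397 prior degrees of freedom, two-sided). P-values were adjusted by Benjamini-Hochberg over all genes of each of 6 contrasts and called under 0.05; values of other probe sets were adjusted over all single-symbol probe sets. A ± B is a log2 difference with its SE, 3 arrays per group. The number of arrays limits the precision. The fit was tested on simulated data.

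The members and lists were chosen with earlier results of these data known. Array values were printed for members called with a difference of at least 0.5 log2 units and for SLC2A1, HK2, LDHA, PDK1, VEGFA, HIF1A and EPAS1, and also for CA12, KDM3A, PDK4, PGD, TIGAR, ARNT2 and BHLHE40, chosen after their values were seen. Of each pathway list up to 4 called genes per contrast were named, with GAPDH. Alternatives were 8 changed settings and each array left out. Promoter windows came from RefSeq (GRCh38.p14).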

Additional observations from a re-analysis of the deposited data

Results flagged for a closer look

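The 24 h responses of the lines differed in the fitted difference of CALDOX minus CAL51 for 3 of the genes named. For CA12 the value was -0.37, with a rise below the threshold in CAL51 and a fall in CALDOX. It was lost without CAL51 24 h replicate 3, without untreated CALDOX replicates 2 or 3 and without any 1 treated CALDOX array (adjusted p of 0.0557 to 0.0647). For TIGAR the value was -0.46, with rises in each line. For LOXL2 it was -0.52, with a fall in CALDOX. The doses were 4 µM in CALDOX and 0.4 µM in CAL51, so dose and line cannot be told apart.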

How the results depend on the processing

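Of 56 calls of members over 6 contrasts, 36 held under all 8 changed settings and without each array: 1 of 5 at 24 h, 11 of 14 at 48 h, 4 of 6 between the times, 16 of 21 between the lines, 4 of 9 in treated CALDOX and 0 of 1 for the difference of responses. No member reversed. With the mean of a gene's probe sets, PRPS2 between the lines became -0.0566 and PGD in treated CALDOX -0.0102, which reversed them. With array weights, whose estimation stopped before it converged, members called became 8 at 24 h, 16 in treated CALDOX and 5 for the difference of responses, and all genes called 3200, 4961 and 1231. With only the arrays compared, genes called were 870 at 24 h and 565 between the times. For the difference of responses, repeated quantile normalization gave 3 members, and a trended robust prior 3 members and 470 genes. Leaving out an array gave 3 to 6 members at 24 h (3 without 24 h replicate 3), 12 to 14 at 48 h, 5 to 7 between the times, 18 to 21 between the lines, 6 to 9 in treated CALDOX and 0 to 2 for the difference of responses. All genes called ranged over 1355 to 2117, 3507 to 4754, 1236 to 1951, 4341 to 5550, 1341 to 2338 and 161 to 353 in the same order.

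Over all groups, same-numbered arrays did not consistently deviate together (8 of 30 pairs above a correlation of 0.1, from -0.46 to 0.46, and 5 of 15 arrays closest to their own number). Within CAL51, replicates 1, 2 and 3 gave 0.23, 0.38 and -0.13 between untreated and 24 h. They gave -0.17, 0.19 and -0.29 between untreated and 48 h, and 0.06, 0.40 and 0.46 between the times. Within CALDOX they gave 0.16, 0.14 and 0.03. The replicate block reported next fitted 1 shift per number for both lines together, so pairing within a line was not tested. A replicate block changed 1 of 222 member results, PGAM1 between the lines (-0.15, adjusted p = 0.064), and ended 4 of 76 calls of named pathway genes: KLF10 and ARNT at 24 h (0.0528, 0.0702), and PRPS2 and HSP90AA1 between the times (0.0523, 0.0723). Repeated normalization or centring moved the median of all genes by at most 0.01, but the counts of genes called moved more. At 24 h, 1999 genes became 2512 with repeated quantile normalization and 1745 with median centring. Between the times 1920 became 2380 and 1654, and for the difference of responses 283 became 424 and 219. With 3 arrays per group and dim genes compressed by background, small differences may have been missed.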
